A study of Homo sapiens with 4 samples.

Results

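The genes of the DNA replication machinery were examined in rituximab-resistant sublines of 2 human B-cell lymphoma lines and in the parental lines. The set comprised 54 genes of 19775 genes on the array, chosen by name. It was divided into 6 role classes, namely origin licensing, helicase activation, polymerases, the sliding clamp with its loader and lagging-strand enzymes, nucleotide supply, and fork and chromatin factors. A probe set was used where its annotation gave 1 gene symbol, and each gene was read by the brightest such probe set, taken as the mean of its linear signals. The rule for membership uses no measured value, although earlier results of these data were known when the genes were listed.

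Jeko-1/R and Jeko-1 are mantle cell lymphoma cells, and Raji/R and Raji are Burkitt lymphoma cells. The sublines marked R were labelled rituximab-resistant and treated with rituximab, an antibody against the B-cell surface protein CD20, whereas the parental cells were labelled as untreated. Each of these 4 groups had 1 array, so resistance and exposure to the antibody cannot be told apart, and a culture's own variation was not measured. The dose, the length of exposure and whether a subline is a clone are not given in the sources used here.

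Replication starts when the origin recognition complex, helped by CDC6 and CDT1, loads the ring of MCM proteins onto DNA in G1. In S phase the kinase of CDC7 and DBF4, together with MCM10, CDC45 and the GINS proteins, turns that ring into an active helicase. Polymerases then copy the strands, held on DNA by the PCNA clamp, while ribonucleotide reductase and thymidylate synthase supply the building blocks. Many of these genes are transcribed at the start of S phase under E2F factors, and their mRNA in a culture therefore tracks how many of its cells are cycling. In such bulk samples, fewer cells in S phase and less RNA per cell cannot be told apart.

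Markers were read for the labelled cell types. All 5 B-cell markers measured exceeded a signal floor of 77.5 on each of the 4 arrays. Of these PAX5, a B-cell transcription factor, had 5628 in Raji/R and 13252 in Raji, a log2 ratio of -1.24, and 8458 in Jeko-1/R and 8394 in Jeko-1. CCND1, the cyclin that defines mantle cell lymphoma, had a signal of 14973 in Jeko-1/R and 15834 in Jeko-1, against 35.1 in Raji/R and 6.44 in Raji, both below the floor. SOX11 had the same pattern, but CD5, the other mantle marker, was below the floor in Jeko-1/R (51.6), Jeko-1 (21.0) and Raji (47.4), and had 121 in Raji/R. The germinal-centre markers MME, BCL6 and MYBL1, read for Burkitt cells, summed to 904 in Jeko-1/R, 843 in Jeko-1, 15103 in Raji/R and 15220 in Raji. All 3 reached the floor on each array, and their log2 ratios in the Raji pair lay between -0.98 and 0.02. MS4A1, which encodes CD20, had signals of 23236 in Jeko-1/R, 24891 in Jeko-1, 11698 in Raji/R and 11514 in Raji. The Raji/R array stood apart. Its median log2 signal was 6.59 against 6.18 in Raji, and 55.6% of its probe sets reached the floor against 48.3%, whereas Jeko-1/R and Jeko-1 had 48.1% and 48.0%. Markers of other cell types also had higher summed signals in Raji/R than in Raji. NK markers summed to 2093 and 1062 (3 and 2 of 4 at or above the floor), myeloid markers to 587 and 223 (2 and 1 of 4), and T-cell markers to 365 and 291 (2 and 1 of 4). NKG7 made up most of the NK sums, with 1749 in Raji/R and 883 in Raji. CD3D had 180.4 in Raji/R and 36.7 in Raji, S100A8 had 227 in Raji/R and 12.0 in Raji, and NCAM1 had 202 in Raji/R and 30.0 in Raji. CSF1R reached the floor in both (241 in Raji/R and 155 in Raji), as did CD3G (77.6 in Raji/R and 143 in Raji), whereas CD3E, CD2, CD14, LYZ and GNLY were below it on every array. Epithelial and stromal markers summed to 2389 in Raji/R and 2306 in Raji (4 of 5 at or above the floor in each), with KRT18 at 381 in Raji/R and 34.7 in Raji and COL1A2 at 264 in Raji/R and 86.8 in Raji. In Jeko-1/R and Jeko-1 the NK sums were 103 and 159.6, with 0 of 4 at the floor in either. T-cell markers summed to 229 in Jeko-1/R and 109 in Jeko-1 (1 and 0 of 4), and myeloid markers to 128 and 149 (1 and 0 of 4). Epithelial and stromal markers summed to 422 in Jeko-1/R and 655 in Jeko-1 (3 and 4 of 5). The part of these array-wide differences in the Raji/R ratios was not tested.

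Short words in promoter sequence were counted for these genes, which had been chosen by function. In the 250 bases before the start of 48 genes of the set that the RefSeq table of GRCh38.p14 lists, 14 held an E2F word, or 29.2%, against 761 of 27305 promoters in that table, or 2.79%. The E2F words searched were TTTCCCGC, TTTGGCGC, TTTCGCGC and TTTGCCGC, on both strands, and they may overlap. The CCAAT word, read by NF-Y, occurred in 54.2% of the replication promoters and 33.0% of all promoters. The CHR word TTTGAA, typical of genes expressed later, in G2 and mitosis, occurred in 2.08% of the replication promoters and 13.6% of all promoters. It was found in 56.2% of 16 promoters of mitosis genes. A match is a description of letters and not a measured site, and a promoter without the E2F words may hold a variant of them.

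The 150 bases before the start are shown for 5 genes. The first 4 hold an E2F word, in capitals. On the probe sets used, the word stands before genes with lower, higher and nearly equal signals in Raji/R. They are PCNA (chr20:5126623-5126772, minus strand), UHRF1 (chr19:4909351-4909500, plus strand), POLE (chr12:132687343-132687492, minus strand) and MCM6 (chr2:135876444-135876593, minus strand), where 3 words are found and a pair of them overlaps. CDC45 (chr22:19479770-19479919, plus strand) is shown because it had the lowest ratio of the set in Raji/R and none of the E2F words searched. Its window also holds tttggcgg, which differs from the searched TTTGGCGC in the last letter. Its capitals mark 4 CCAAT words on either strand.
PCNA: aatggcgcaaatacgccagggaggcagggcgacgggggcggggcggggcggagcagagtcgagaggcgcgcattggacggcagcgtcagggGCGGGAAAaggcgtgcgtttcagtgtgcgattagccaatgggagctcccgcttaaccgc
UHRF1: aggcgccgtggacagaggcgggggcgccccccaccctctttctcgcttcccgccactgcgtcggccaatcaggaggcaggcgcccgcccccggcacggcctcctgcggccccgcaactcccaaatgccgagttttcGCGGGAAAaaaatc
POLE: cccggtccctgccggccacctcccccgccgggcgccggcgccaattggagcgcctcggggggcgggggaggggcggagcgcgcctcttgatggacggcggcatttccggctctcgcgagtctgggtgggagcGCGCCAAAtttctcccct
MCM6: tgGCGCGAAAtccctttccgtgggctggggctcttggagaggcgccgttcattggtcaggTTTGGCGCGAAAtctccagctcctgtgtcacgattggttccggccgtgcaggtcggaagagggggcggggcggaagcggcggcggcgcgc
CDC45: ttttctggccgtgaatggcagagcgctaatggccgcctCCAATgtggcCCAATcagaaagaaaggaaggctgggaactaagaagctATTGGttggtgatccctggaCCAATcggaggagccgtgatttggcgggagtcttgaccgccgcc

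The first question was how the replication genes stood in each resistant subline against its parent. In Jeko-1/R, 45 of the 54 genes had a lower signal than in Jeko-1 and 9 a higher one, but every difference was small. The log2 ratios lay between -0.53 and 0.50 with a median of -0.17. In Raji/R, 41 of 53 measured genes were lower than in Raji and 12 were higher, over a wider range from -1.10 to 0.61, with a median of -0.19. The widest differences in Raji/R were found for CDC45, MCM10, UHRF1 and CDC6, which were lower, while the polymerase epsilon genes POLE and POLE2 were higher.

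These counts were read against all measured genes. In the Jeko-1 pair 49.8% of 11588 genes had a log2 ratio below 0, against 83.3% of the replication genes, and the median of all genes was 0.00 (n = 11588). In the Raji pair the share was 43.9% of 14642 genes, against 77.4% of the replication genes, and the median of all genes was 0.08. With a higher signal floor, at the 75th percentile, 52.7% of 7821 genes and 36 of 48 replication genes were below 0 there. The median of all genes in that pair was then -0.03. A ratio of at least 1.5-fold was reached by 0 replication genes in the Jeko-1 pair in either direction, where 3.37% of all genes were lower and 2.68% higher by that size. In the Raji pair, 8 replication genes (15.1%) were lower by at least 1.5-fold against 10.5% of all genes, and 2 (3.77%) were higher against 18.7%. By at least 2-fold, 2 replication genes (3.77%) were lower in Raji/R against 2.64% of all genes, and 0 were higher against 7.01%. In the Jeko-1 pair, the share of all genes at 2-fold was 0.595% lower and 0.38% higher, with 0 replication genes in either. As deposited, the shares of large ratios in the lower direction were thus near those of all genes. On median-centred arrays, 29 of 53 replication genes (54.7%) were lower in Raji/R by at least 1.5-fold, against 30.0% of all genes, and their median was -0.60.

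**Figure D1:**
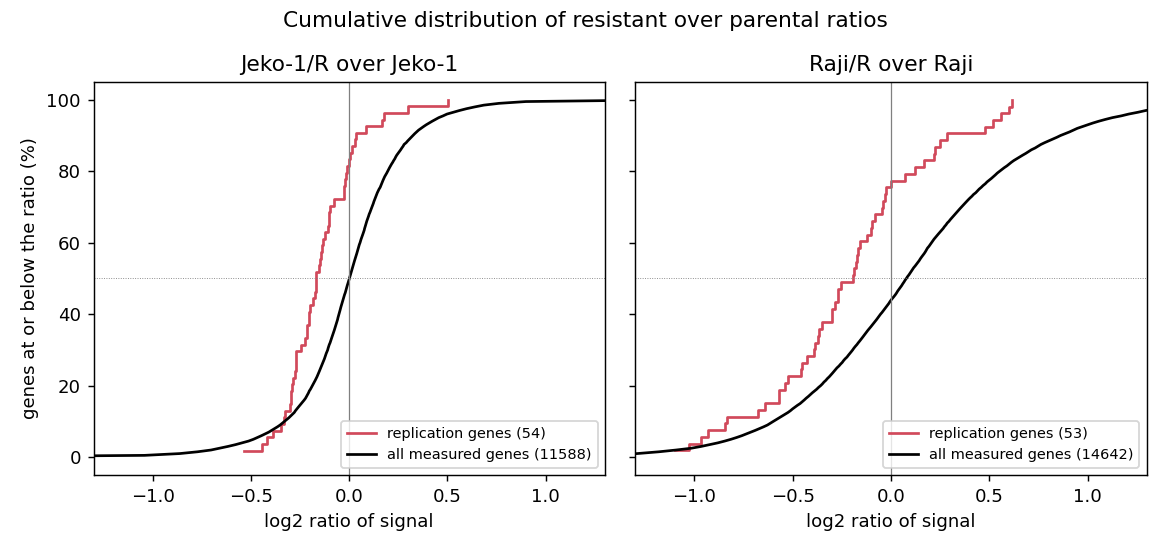
The cumulative share of genes (y axis, percent) at or below each log2 ratio of signal (x axis) is drawn for the replication genes in red and all measured genes in black, Jeko-1/R over Jeko-1 on the left and Raji/R over Raji on the right, 1 array per group. The red curve lies left of the black one around its median, at -0.17 against 0.00 on the left and at -0.19 against 0.08 on the right.

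With 1 array per group there was no test within a line. As a stand-in for error, the spread between probe sets that read 1 gene was taken, and the SD of their log2 ratios was 0.25 for Jeko-1 (5310 genes) and 0.49 for Raji (4949 genes). Within these SDs lay 36 of 54 replication ratios in the Jeko-1 pair and 37 of 53 in the Raji pair. Among the replication genes these SDs were 0.17 over 28 genes and 0.35 over 24 genes, and 27 of 54 ratios in the Jeko-1 pair and 28 of 53 in the Raji pair lay within those values. A further 40 probe sets of 29 replication genes could be read in each pair. For Jeko-1/R, 30 of 40 had the sign of the probe set that was used, and their median log2 ratio was -0.19. For Raji/R, 25 of 39 had that sign, and the median of all 40 was -0.22.

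**Figure D2:**
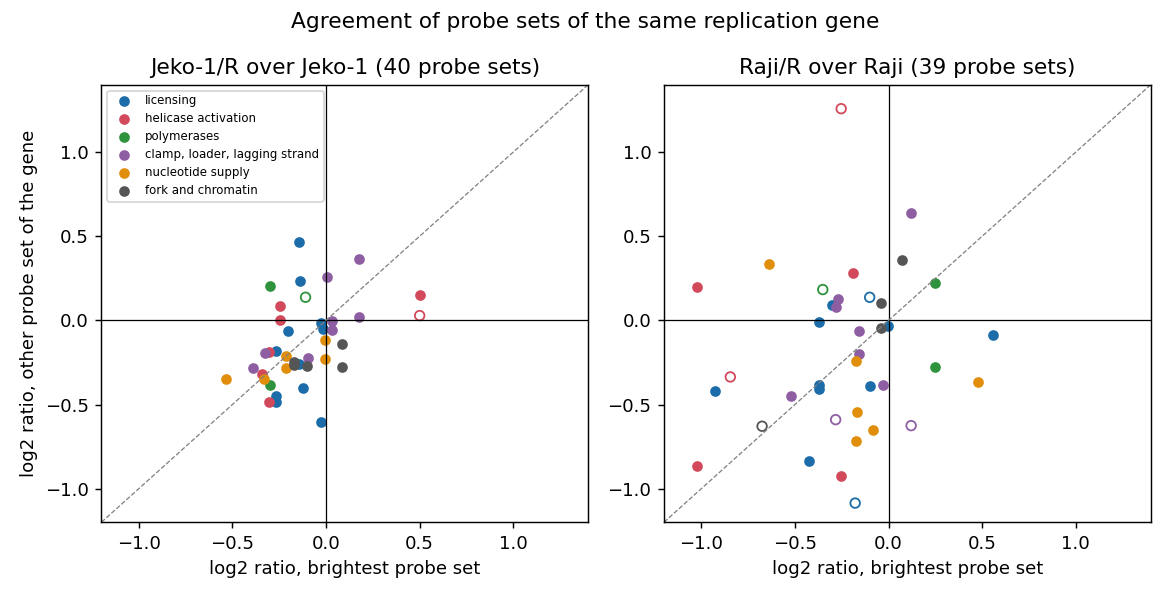
Each point is a further probe set of a replication gene, with the log2 ratio of the probe set used for the gene on the x axis and its own log2 ratio on the y axis, coloured by role class. Open circles have 1 array below the signal floor and are bounds, and the dashed line marks equal ratios: the sign is shared by 30 of 40 probe sets on the left and 25 of 39 on the right.

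Both sublines were lower than their parents for 35 of the 53 genes measured in both pairs, or 66.0%, against 24.8% of 10655 genes. This share largely restates the shares below 0 in each single pair, 83.3% and 77.4%. Agreement between the sublines was not tested. On the probe sets used, only 3 genes, POLE, POLE2 and RFC3, were above 0 in both pairs. POLE2 was at -0.01 in the Jeko-1 pair after quantile normalization or lowess adjustment, and RFC3 was at -0.29 in the Raji pair on median-centred arrays. The other RFC3 probe sets gave -0.01 and -0.05 in Jeko-1/R, and 0.64 and a bound of -0.63 in Raji/R. A further 9 genes were below 0 in Jeko-1/R and above 0 in Raji/R, and 6 were the other way round. The sizes did not run in parallel, with Pearson r = -0.09 and Spearman rho = 0.00 across the 53 genes, which are not independent replicates. Over all 10655 genes these values were -0.03 and -0.01.

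**Figure D3:**
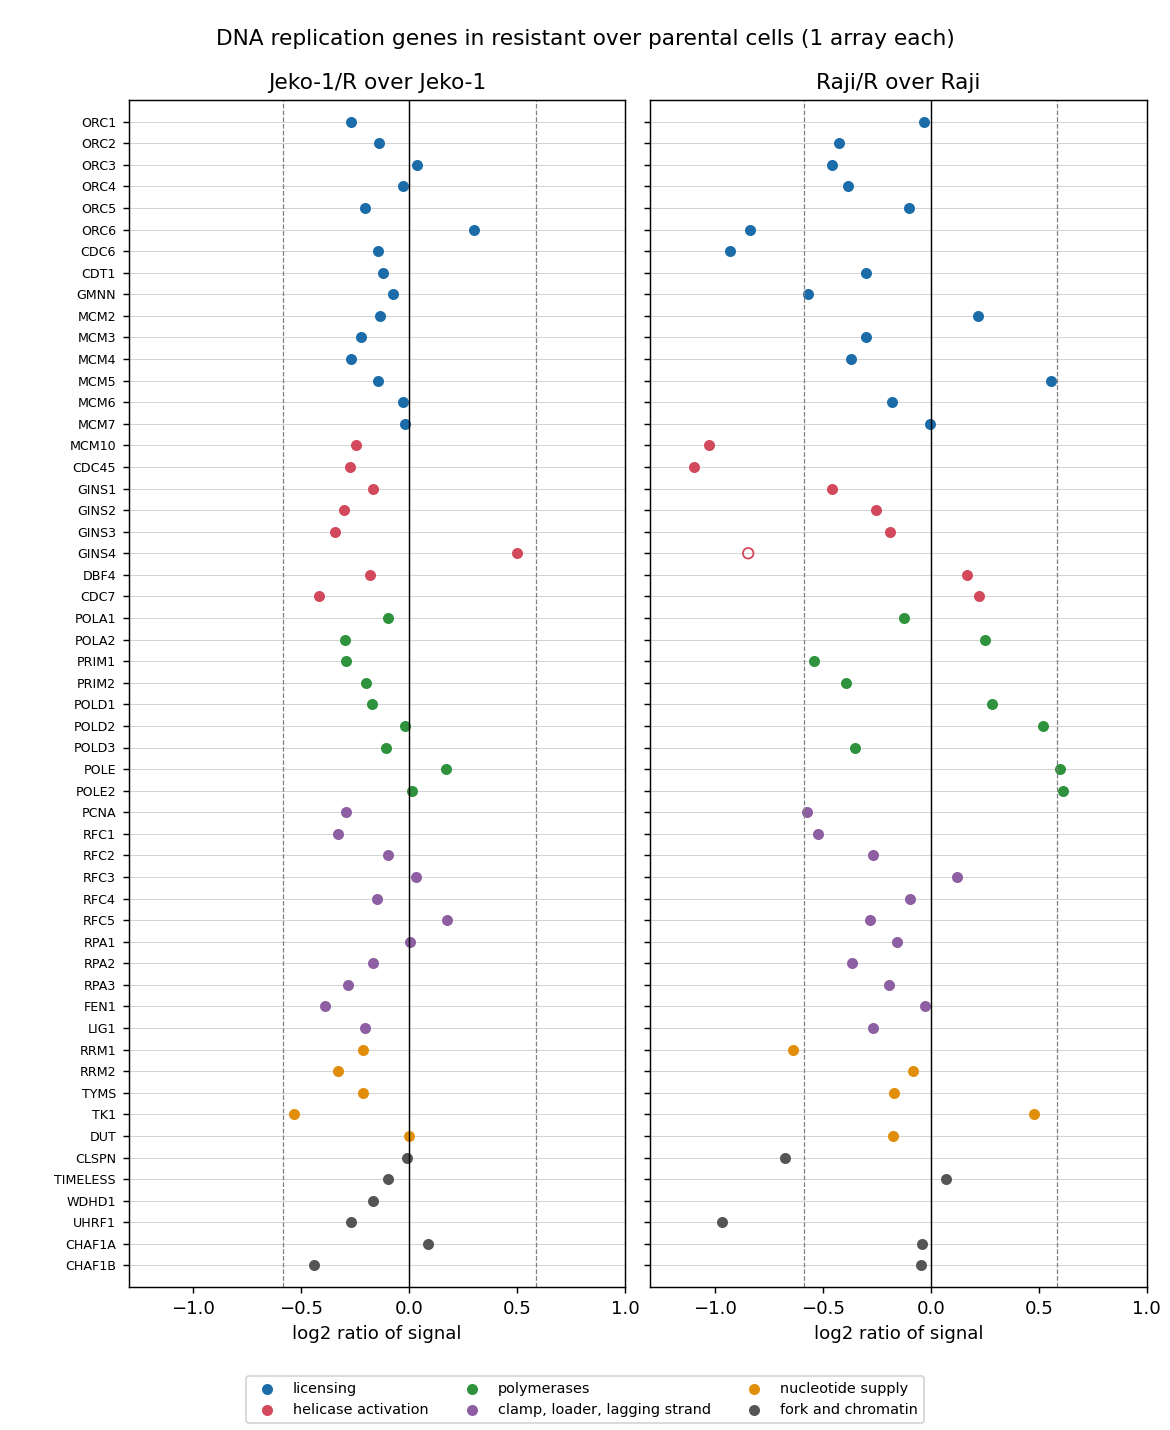
Log2 ratio of signal (x axis) of each replication gene (y axis, ordered and coloured by role class), Jeko-1/R over Jeko-1 on the left and Raji/R over Raji on the right, 1 array per group. Dashed lines mark 1.5-fold, the open circle for GINS4 is a bound, and WDHD1 has no point on the right; 45 points lie below 0 on the left and 41 on the right.

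The signal floor of 77.5 (6.28 on the log2 scale) was the median over every probe set and array, and lower values were raised to it. All 54 genes reached it on both Jeko-1 arrays, 52 in Raji/R and 53 in Raji. WDHD1, which tethers polymerase alpha to the helicase, was below it in both on its brightest probe set, which gave no Raji ratio. Another WDHD1 probe set was just above it, with 95.2 in Raji/R and 81.5 in Raji, a log2 ratio of 0.22. Just past 1.5-fold in the Raji pair were RRM1 at -0.64 and POLE at 0.60, and just short of it were PCNA and GMNN at -0.57 and MCM5 at 0.56.

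Origin licensing was the largest class, with 15 genes. In Jeko-1/R 13 of them were below 0 with a median log2 ratio of -0.13, and in Raji/R 13 were below 0 with a median of -0.30. The groups within the class differed between the pairs. ORC1 to ORC6, the subunits of the origin recognition complex, were all 6 below 0 in Raji/R, with a median of -0.41, and 4 of 6 in Jeko-1/R, with a median of -0.08. In Raji/R, averaging probe sets left 4 of 6 below 0, with a median of -0.24, and median centring gave -0.82. MCM2 to MCM7, the subunits of the helicase ring, had a median of -0.14 in Jeko-1/R and one of -0.09 in Raji/R, with 6 and 4 of 6 below 0. These counts were 4 and 3 of 6 after quantile normalization or lowess adjustment. MCM6 and MCM7 were close to 0 in Jeko-1/R, at -0.03 and -0.02.

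CDC6, the ATPase that loads the MCM ring with the origin recognition complex, had a signal of 895 in Jeko-1/R and 990.0 in Jeko-1. In the Raji pair it had 1069 in Raji/R and 2035 in Raji. Raji stood above the other 3 arrays, and the log2 ratio was -0.15 for Jeko-1/R and -0.93 for Raji/R. The other CDC6 probe set gave -0.26 and -0.42, so the size in Raji/R was smaller there.

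ORC6, the smallest subunit of the origin recognition complex, had 10477 in Jeko-1/R and 8522 in Jeko-1, and 3203 in Raji/R and 5719.6 in Raji. It was the licensing gene with the highest ratio in Jeko-1/R, at 0.30, and had a low one in Raji/R, at -0.84. Its only probe set carries a suffix that marks possible cross-hybridisation. ORC2, another subunit, had 485 in Raji/R and 652 in Raji, a log2 ratio of -0.43, and its other probe set gave -0.83. For Jeko-1/R the ratios of the ORC2 probe sets were -0.14 and 0.24, on either side of 0.

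GMNN encodes geminin, which binds CDT1 and blocks a repeated round of licensing. Its signals were 6343 in Jeko-1/R and 6695 in Jeko-1, and 2496 in Raji/R and 3704 in Raji. The ratio was near 0 in the Jeko-1 pair (-0.08), and Raji/R was below Raji (-0.57). CDT1 itself, which brings the MCM ring to the origin, had a log2 ratio of -0.12 in Jeko-1/R and one of -0.30 in Raji/R. Its other probe set gave -0.40 and 0.09.

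MCM4, a subunit of the helicase ring, had 1795 in Jeko-1/R and 2162 in Jeko-1, and 4684 in Raji/R and 6058 in Raji. Both sublines were below their parents, at -0.27 and -0.37, and 3 further probe sets gave between -0.48 and -0.18 for Jeko-1/R and between -0.41 and -0.01 for Raji/R. The MCM genes did not share a sign in Raji/R. MCM3 was at -0.30, MCM6 at -0.18 and MCM7 at 0.00, while MCM2 was at 0.22, which became -0.19 when arrays were centred on their medians. A second, dimmer MCM6 probe set gave -0.02 for Jeko-1/R and a bound of -1.09 for Raji/R. MCM5 had 2442 in Raji/R and 1658 in Raji, a log2 ratio of 0.56, but its other probe set gave -0.09. In Jeko-1/R the MCM5 probe sets also lay on either side of 0, at -0.15 and 0.46.

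Helicase activation held the lowest ratios in Raji/R. Of its 8 genes, 7 were below 0 in Jeko-1/R with a median log2 ratio of -0.26, and 6 in Raji/R with a median of -0.35. The Raji median was -0.76 on median-centred arrays, and with the mean of a gene's probe sets it was 0.05, with 3 of 7 below 0. In Raji/R 3 of the 8 were lower by at least 1.5-fold, 2 of them by at least 2-fold.

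CDC45, a core subunit of the active replicative helicase, had 865 in Jeko-1/R and 1048 in Jeko-1. In the Raji pair its signals were 755 in Raji/R and 1617 in Raji. Raji was the highest of the 4 arrays, Raji/R the lowest, and the log2 ratios were -0.28 and -1.10, which is a 2.14-fold lower signal in Raji/R. A single probe set reads CDC45, so no second reading was at hand. MCM10, which helps to activate the loaded helicase, had 710.1 in Jeko-1/R and 842 in Jeko-1, and 496 in Raji/R and 1010.3 in Raji. Its log2 ratios were -0.24 and -1.03, but its probe sets disagreed. Another gave 0.00 and -0.87, and the last gave 0.08 and 0.20, which is the value in Raji/R once probe sets that may cross-hybridise are left out.

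The GINS complex joins CDC45 and the MCM ring. GINS1 had 4327 in Jeko-1/R and 4865 in Jeko-1, and 3507 in Raji/R and 4807 in Raji, giving log2 ratios of -0.17 and -0.46. GINS2 was at -0.30 and -0.25, and GINS3 at -0.34 and -0.19. Dimmer GINS2 probe sets disagreed in Raji/R, with a bound of 1.26 and a ratio of -0.93. In Jeko-1/R they gave -0.19 and -0.49. Another probe set for GINS3 read -0.32 in Jeko-1/R but 0.28 in Raji/R. GINS4 went against the other subunits in the Jeko-1 pair, with 202 in Jeko-1/R and 143 in Jeko-1, a log2 ratio of 0.50. In Raji/R its signal of 35.1 was below the floor, against 139 in Raji, so it was at least 1.80-fold lower. GINS4 was dim on all arrays, and a further probe set gave 0.15 for Jeko-1/R and a bound of -0.34 for Raji/R. CDC7, the kinase that phosphorylates the MCM ring, had 1130.1 in Jeko-1/R and 1512 in Jeko-1, and 461 in Raji/R and 394 in Raji. It was below its parent in Jeko-1/R at -0.42 and above it in Raji/R at 0.23. DBF4, its activating subunit, had the same order, at -0.18 and 0.17. On median-centred arrays the Raji values of CDC7 and DBF4 were -0.18 and -0.24.

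**Figure D4:**
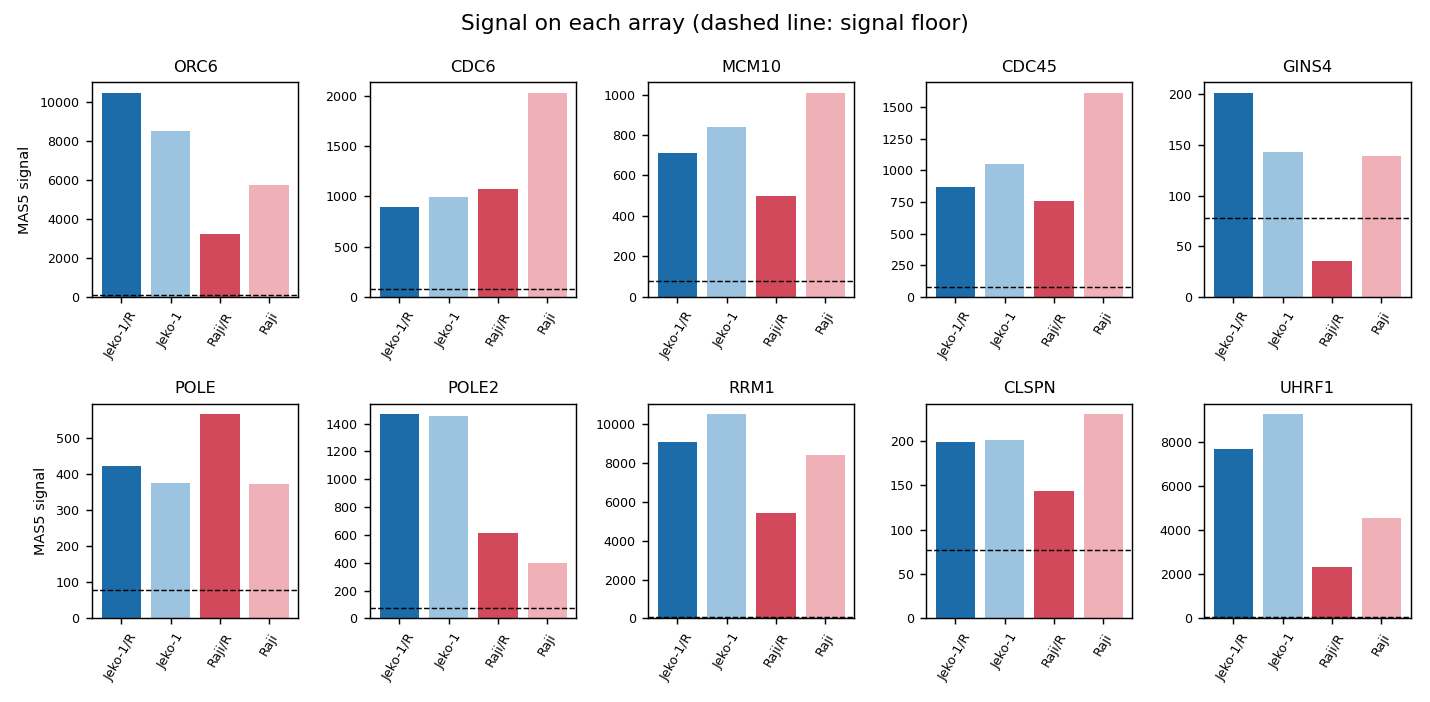
Signal (y axis, linear, from 0) on the arrays of Jeko-1/R, Jeko-1, Raji/R and Raji (x axis) for the 10 replication genes with a ratio of at least 1.5-fold in the Raji pair, 1 bar per array. The dashed line is the floor of 77.5. The bar of Raji/R is below that of Raji for 8 genes, such as CDC45 at 755 and 1617, and above it for POLE and POLE2.

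The polymerase genes were split in Raji/R. In Jeko-1/R 7 of the 9 genes were below 0 with a median log2 ratio of -0.11. In Raji/R 4 were below 0 and 5 above, with a median of 0.25, which was -0.16 with 6 below 0 when arrays were centred on their medians. The Raji values followed the enzyme only in part, since those of polymerases alpha and delta lay on either side of 0. The primase subunits PRIM1 and PRIM2, which lay down RNA primers, were below 0, and most genes of polymerases delta and epsilon were above.

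POLE, the catalytic subunit of the leading-strand polymerase, had 422 in Jeko-1/R and 375 in Jeko-1, and 564 in Raji/R and 373 in Raji. Raji/R was the highest array, and the log2 ratios were 0.17 and 0.60. Its accessory subunit POLE2 had 1467 in Jeko-1/R and 1454 in Jeko-1, and 612 in Raji/R and 400.0 in Raji. The Jeko-1 pair was nearly equal at 0.01, and Raji/R was above Raji at 0.61. On median-centred arrays the Raji ratios of both remained above 0, at 0.19 for POLE and 0.20 for POLE2. Polymerase delta makes most of the lagging strand. Its subunit POLD2 had 4809 in Raji/R and 3352 in Raji, a log2 ratio of 0.52, and -0.02 in the Jeko-1 pair. POLD1, the catalytic subunit, was at -0.17 for Jeko-1/R and 0.28 for Raji/R, with -0.13 there on median-centred arrays, whereas POLD3 was at -0.11 and -0.35.

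PRIM1, the catalytic primase subunit, had 5271 in Jeko-1/R and 6451 in Jeko-1, and 639 in Raji/R and 928 in Raji. Both sublines were below their parents, at -0.29 and -0.54. PRIM2, the regulatory subunit, was at -0.20 and -0.39. POLA1, the catalytic subunit of polymerase alpha, was close to its parent in both sublines, at -0.10 and -0.12, and POLA2 was at -0.30 and 0.25, with -0.16 in Raji/R on median-centred arrays.

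The clamp, its loader and the lagging-strand enzymes were lower in Jeko-1/R for 8 of 11 genes, and Raji/R had 10 of 11 lower. The medians were -0.17 and -0.27, and 0 genes reached 1.5-fold in either pair. On median-centred arrays the Raji median was -0.68 and 7 of 11 genes were lower by at least 1.5-fold. PCNA, the ring that holds polymerases on DNA, had 11388 in Jeko-1/R and 13978 in Jeko-1, and 16781 in Raji/R and 24946 in Raji. It was below its parent in both sublines, at -0.30 and -0.57. RFC1, the large subunit of the loader that opens the ring, had 1706 in Jeko-1/R and 2142 in Jeko-1, and 451 in Raji/R and 648 in Raji, with ratios of -0.33 and -0.52. Its other readable probe set gave -0.20 and -0.45, on the same side in both pairs. The small loader subunits RFC2 to RFC5 lay between -0.15 and 0.17 in Jeko-1/R and between -0.28 and 0.12 in Raji/R.

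RPA2 belongs to the complex that coats single-stranded DNA. It had 3054 in Jeko-1/R and 3428 in Jeko-1, and 5519 in Raji/R and 7102 in Raji, with log2 ratios of -0.17 and -0.36. Of its partners, RPA1 was at 0.00 and -0.16, and RPA3 at -0.29 and -0.19. FEN1, the nuclease that trims Okazaki fragments, had 7509.9 in Jeko-1/R and 9840.2 in Jeko-1, a ratio of -0.39, the lowest of the class in that pair. In Raji/R and Raji it had 5699 and 5809.6, a ratio of -0.03, and its other probe set gave -0.28 and -0.39. LIG1, the ligase that joins the fragments, was at -0.20 and -0.27.

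In nucleotide supply, all 5 genes were below 0 in Jeko-1/R, with a median of -0.21, and 4 of 5 in Raji/R, with a median of -0.17. DUT, the enzyme that keeps uracil out of DNA, was at 0.00 in the Jeko-1 pair to 2 decimals, and at 0.10 there after quantile normalization. Its other probe sets gave -0.11 and -0.23 in Jeko-1/R, and -0.72 and -0.24 in Raji/R. RRM1, the large subunit of ribonucleotide reductase, had 9053 in Jeko-1/R and 10495 in Jeko-1, and 5408 in Raji/R and 8427 in Raji. The ratios were -0.21 and -0.64, and the other RRM1 probe set gave -0.28 and 0.34, so the Raji value depended on the probe set. RRM2, the small subunit that rises in S phase, had 3126 in Jeko-1/R and 3929 in Jeko-1, and 5059.8 in Raji/R and 5350.3 in Raji. Its ratios of -0.33 and -0.08 became -0.35 and -0.65 with the other probe set.

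TYMS encodes thymidylate synthase. It had 13834 in Jeko-1/R and 16038 in Jeko-1, and 35125 in Raji/R and 39458 in Raji. Both ratios were modest, at -0.21 and -0.17, and a second probe set gave -0.21 and -0.54. TK1, the salvage kinase for thymidine, had the lowest ratio of the whole set in Jeko-1/R, with 648 against 938 in Jeko-1, or -0.53. In Raji/R it had 1721 against 1237 in Raji, or 0.48, whereas its other probe set gave -0.35 and -0.37.

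Among the fork and chromatin factors, 5 of 6 genes were below 0 in Jeko-1/R and 4 of 5 in Raji/R, with medians of -0.14 and -0.04. The Raji median was not stable, at 0.08 with 2 of 4 genes below 0 when probe sets were averaged, -0.45 with 5 of 5 on median-centred arrays, and -0.36 without x_at and s_at probe sets. UHRF1, which recruits the maintenance DNA methyltransferase to hemimethylated DNA, had 7674 in Jeko-1/R and 9258 in Jeko-1, and 2334 in Raji/R and 4564 in Raji. The ratios were -0.27 and -0.97, which is a 1.96-fold lower signal in Raji/R, from the only probe set of the gene. CLSPN, which encodes the checkpoint mediator claspin, had 199 in Jeko-1/R and 201 in Jeko-1, and 144 in Raji/R and 229.9 in Raji. The Jeko-1 arrays were nearly equal at -0.01, and Raji/R was below Raji at -0.68. CHAF1B, a subunit of the histone chaperone that follows the fork, had 159.9 in Jeko-1/R and 217 in Jeko-1, a ratio of -0.44, and 261 in Raji/R and 269 in Raji, a ratio of -0.04. TIMELESS, a fork stabiliser, was at -0.10 and 0.07 (-0.34 in Raji/R on median-centred arrays), and CHAF1A, the partner of CHAF1B, at 0.09 and -0.04. Other readable CHAF1A probe sets gave -0.28 and -0.14 in Jeko-1/R, and -0.05 and 0.10 in Raji/R.

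The exact E2F words searched did not separate the ratios, and a promoter with only a variant was counted as without a word. Among Jeko-1 arrays, the 14 genes with a word had a median log2 ratio of -0.16 and the 34 without one -0.17. In the Raji pair the medians were -0.22 for 14 genes and -0.17 for 33. PCNA and UHRF1, with the same word, were at -0.57 and -0.97 in Raji/R, and POLE, with another, was at 0.60.

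Other genes of the cell cycle were set beside the replication genes. Of 30 further replication factors measured in the Jeko-1 pair, 17 were below 0 with a median of -0.03, and of 29 in the Raji pair 19 were, with a median of -0.15. Further genes of nucleotide metabolism had 9 of 14 below 0 in Jeko-1/R (median -0.06) and 9 of 15 in Raji/R (median -0.14). Regulators of S phase had 18 of 24 (median -0.07) and 19 of 26 (median -0.15). Mitosis genes had 15 of 20 (median -0.09) and 14 of 19 (median -0.14).

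As deposited, E2F1, a factor that drives S-phase genes, was at least 1.5-fold higher in both sublines on the brighter of its 2 probe sets. It had 252 in Jeko-1/R and 164 in Jeko-1, a log2 ratio of 0.62, and 681 in Raji/R and 394 in Raji, a log2 ratio of 0.79. The other E2F genes, E2F2 to E2F8, did not follow it, with 5 of 7 below 0 in Jeko-1/R and 7 of 7 in Raji/R. Past 1.5-fold in the lower direction were E2F2 for Jeko-1/R (-0.75) and, for Raji/R, E2F3 (-0.82), E2F7 (-0.75) and E2F8 (-0.69). Among mitosis genes, the ratios in Raji/R went both ways. KIF11, the spindle motor, had 132 in Raji/R and 415 in Raji (-1.65), and BUB1B, a spindle checkpoint kinase, had 1400.1 in Raji/R and 2829.5 in Raji (-1.02). MKI67, the proliferation marker Ki-67, had 744 in Raji/R and 369 in Raji (1.01). In the Jeko-1 pair these 3 genes were at -0.18, -0.16 and -0.03. Median centring lowers Raji/R as a whole, and the ratios of E2F1 and MKI67 on such arrays are not given here.

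Across both lines, limma was fitted to all 15575 genes with cell line and resistance as terms. For resistant minus parental cells, 0 genes passed an adjusted p of 0.05 (0.0%), replication genes included, and the lowest adjusted p of a replication gene was 0.974. At an unadjusted p under 0.05, limma gave 198 genes higher and 126 lower, and the lower ones were 0.809% of all genes. CDC45 was the only replication gene among them, with a mean log2 difference of -0.69 ± 0.29 (SE), an unadjusted limma p of 0.0498 and an adjusted p of 0.974, lower in 2 of 2 sublines. The fit had 1 residual degree of freedom for each gene, and an exact test over 2 pairs cannot give a p below 0.5.

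A second question was how the lines themselves differed. For 39 of 54 genes (72.2%) the mean log2 difference of the Jeko-1 lines from the Raji lines exceeded the ratios within both pairs, against 64.6% of all genes tested. At an adjusted limma p of 0.05, 14 replication genes (25.9%) were higher in the Jeko-1 lines, against 23.3% of all genes. A further 13 (24.1%) were higher in the Raji lines, against 30.1% of all genes. These shares were near those of all genes. Parent and subline stand in for replicates of a line here, and they are not independent cultures, so the p-values measure only the spread between these arrays.

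WDHD1 had 807 in Jeko-1/R and 908 in Jeko-1, against 6.99 in Raji/R and 60.1 in Raji, both below the floor. On this probe set it was at least 11.1-fold higher in the Jeko-1 lines (limma adjusted p = 6.97e-05). A WDHD1 probe set above the floor on all 4 arrays gave a smaller difference, 3.14 on the log2 scale, and the other one gave 3.08. PRIM1 was higher in the Jeko-1 lines by 2.92 ± 0.25 (SE, limma adjusted p = 0.000124). ORC3, an origin recognition subunit, had 1289 in Jeko-1/R and 1259 in Jeko-1, against 148 in Raji/R and 203 in Raji, a difference of 2.88 ± 0.26 (limma adjusted p = 0.000158). RFC3 and POLA1 were also higher by over 4-fold, at 2.62 and 2.57, and the 2 other RFC3 probe sets gave 2.75 and 1.36.

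CDT1 was the gene with the largest difference in the opposite direction. It had 1666 in Jeko-1/R and 1813 in Jeko-1, against 8067 in Raji/R and 9945 in Raji. Its difference was -2.37 ± 0.25 (limma adjusted p = 0.000276), and its other probe set gave -0.71. GINS3 had 572 in Jeko-1/R and 726 in Jeko-1, against 2017 in Raji/R and 2298 in Raji, a difference of -1.74 (limma adjusted p = 0.00102). DUT had 15573 in Jeko-1/R and 15601 in Jeko-1, against 40277 in Raji/R and 45422 in Raji, a difference of -1.46 (limma adjusted p = 0.00227). Its 2 other probe sets gave -1.40 and -1.97.

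**Figure D5:**
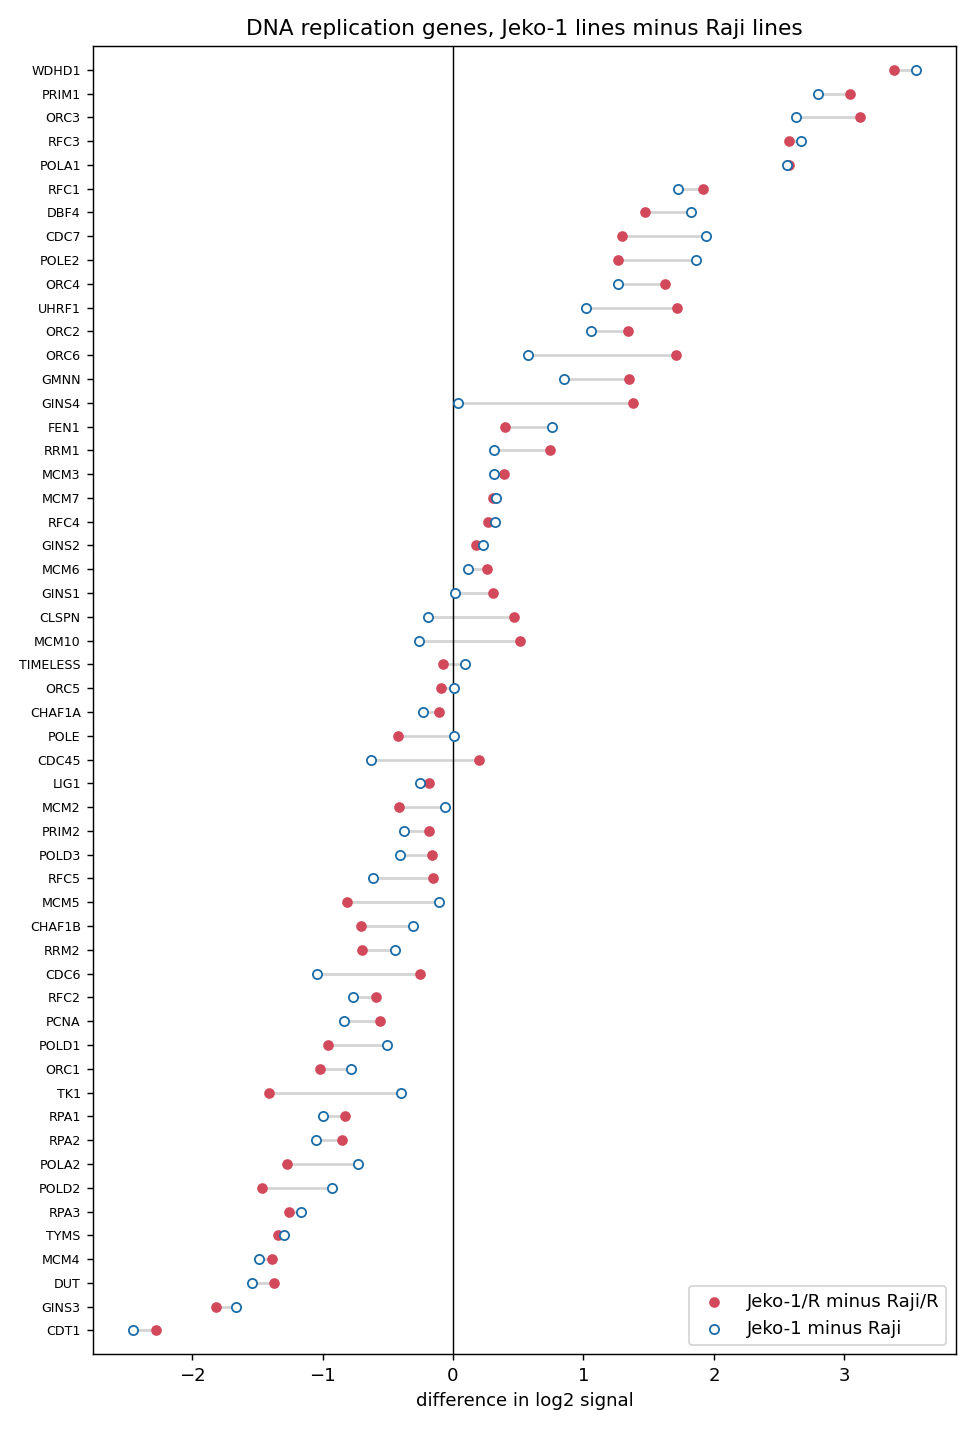
Difference in log2 signal (x axis) between the Jeko-1 and Raji lines for each replication gene (y axis, sorted by the mean), with filled points for Jeko-1/R minus Raji/R and open points for Jeko-1 minus Raji, 1 array per group and values below the floor raised to it. Sublines and parents give the same sign for 48 of 54 genes, from WDHD1 at the top, a bound, to CDT1 at the bottom.

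The line difference ran through each role class unevenly. In licensing 5 genes were higher in the Jeko-1 lines (ORC2, ORC3, ORC4, ORC6 and GMNN) and 3 in the Raji lines (CDT1, MCM4 and ORC1). Both subunits of the DBF4-dependent kinase were higher in the Jeko-1 lines, DBF4 by 1.65 and CDC7 by 1.62. In nucleotide supply 0 genes were higher in the Jeko-1 lines and 3 in the Raji lines, namely DUT, TYMS at -1.32 and TK1 at -0.90. RRM2 differed by -0.57, which did not pass the test, and its other probe set gave 1.37. Among the genes fixed as further nucleotide metabolism, 0 of 15 were higher in the Jeko-1 lines and 8 in the Raji lines, whereas of 20 mitosis genes 12 were higher in the Jeko-1 lines and 1 in the Raji lines. Sublines and parents gave the same sign of the line difference for 48 of the 54 replication genes, or 88.9%, against 74.4% of all genes tested.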

How the data were processed

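Total RNA was extracted with Trizol and biotinylated cRNA prepared from 6 µg, per the labels' protocols. Signals on the Affymetrix U133 Plus 2.0 array were made with MAS5 (version: not given in the sources used here), per the submitters' processing notes. For 54613 probe sets, the authors deposited signals whose log2 scale is read from the values, since no source used here states the base. MAS5 scales each array by 1 factor, and on base 2 the mean signals without the top and bottom 2% were 497, 497, 494 and 494 (Jeko-1/R, Jeko-1, Raji/R and Raji), which leaves any signal-dependent difference between arrays uncorrected. The number of arrays limits the precision.

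The annotation gave 1 symbol to 41091 probe sets, more than 1 to 1801 and no symbol to 11721. Of those with 1 symbol, 41037 matched the RefSeq gene table and 0 symbols were updated. Values below the pooled median were raised to it. A gene was measured in a pair where at least 1 array reached that floor, and a ratio with 1 side below it is a bound. The pairing of arrays is that of subline and parental line. limma 3.58.1 (R 4.3.3) was run with empirical Bayes moderation, two-sided, with Benjamini-Hochberg adjustment over 15575 genes. The labels mention no separate cultures within a group. The steps were tested on simulated data with 200 changed genes. Python 3.11.15, numpy 2.4.6, pandas 2.3.3, statsmodels 0.14.6 and matplotlib 3.10.9 were used.

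The genes, role classes and other lists were chosen with earlier results of these data known. Values on every array are given for the 3 genes of each class with the largest mean ratio over both pairs, any gene at least 1.5-fold apart in a pair, and the 3 genes per direction with the largest line difference. From the other lists, genes at least 1.5-fold apart the same way in both pairs or 2-fold in either are named, and marker genes and E2F2, E2F3, E2F7 and E2F8 were named after their values were seen. CDC7, POLD2, MCM5, ORC2, FEN1 and TK1 were given signals outside this rule, after their values were seen, as were the ratios of the other genes. Alternatives were quantile normalization, median centring, a lowess adjustment (fraction 0.3), a floor at the 75th percentile, a pseudocount of 50, the mean of a gene's probe sets, and leaving out x_at and s_at probe sets.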

Additional observations from a re-analysis of the deposited data

How the results depend on the processing

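Median centring, which lowers Raji/R as a whole, moved the Raji pair most. The median of all genes became -0.31 from 0.08, that of the replication genes -0.60, and 29 of them were lower by at least 1.5-fold. Relative to all genes, the replication median was -0.29 there and -0.27 as reported. This offset was smaller with the floor at the 75th percentile, at -0.16, and after quantile normalization, at -0.19. Under the other settings it lay between -0.28 and -0.24. With the mean of a gene's probe sets the Raji median of the replication genes, not set against all genes, was -0.12. In the Jeko-1 pair, 1 gene was lower by at least 1.5-fold after quantile normalization, when probe sets were averaged, and on leaving out x_at and s_at probe sets, where the median was -0.20. MCM10 in Raji/R turned to 0.20 without x_at and s_at probe sets. Of 62 alternative values for the 10 ratios of at least 1.5-fold, 59 stayed within the spread between probe sets. The exceptions besides MCM10 were GINS4 at -1.37 after lowess adjustment and RRM1 at -0.15 with the mean of probe sets. The cause was not tested. The count of 59 was partly fixed in advance. The spread was an SD of 0.49 in the Raji pair, wider than the shift by median centring. The higher floor, and averaging for genes with 1 probe set, left values unchanged. On median-centred arrays POLE at 0.19 and POLE2 at 0.20 counted as within the spread, though short of 1.5-fold. The 1.5-fold count of lower genes in Raji/R was 6 to 10 under the other settings, and genes higher by 1.5-fold numbered 0 to 3. limma called 0 genes for resistant minus parental cells under each of 5 alternatives and with no replicate block, that is, without the cell line term. For the line difference it called 21 to 32 replication genes against 27 as reported, and 6289 to 8299 of all genes against 8319. With 1 array per group, leaving out a replicate was not possible. RNA quality was not checked, and dim genes such as GINS4 and CLSPN lie close to the floor.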
